A study of Mus musculus with 36 samples.

Results

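The genes described here are the core genes of the mammalian circadian clock: Arntl, Clock, Per1, Per2, Per3, Cry1, Cry2, Nr1d1, Nr1d2 and Dbp. They were chosen by symbol and by having a row in the deposited expression table, and 9 of the 10 had one. Cry1 was not found there by symbol or by Ensembl identifier and is not analysed here. The 9 genes are 9 of 12762 in the table, which the authors had filtered for expression. The study made 36 mRNA-seq libraries from B3, a mouse pre-B line used as a dividing model of early B cells. The Ikaros cells had been transduced with an MSCV retroviral vector, HA-Ikaros-ERt2-IRES-GFP, in which the transcription factor Ikaros is fused to a hormone-binding domain that takes the protein into the nucleus when 4-hydroxy-tamoxifen (4-OHT) is present. The control cells carried the vector with ERt2 and IRES-GFP but without Ikaros. The paper states that nuclear Ikaros leads these cells to growth arrest and differentiation, with the arrest falling inside the sampled course. Whether arrest plays a part in the differences below was not tested. Both lines were pools of cells sorted for GFP and expanded, so the replicates are cultures of the same 2 pools and not independent transductions. Both lines received 0.5 uM 4-OHT and were collected at 0, 2, 6, 12, 18 and 24 h with n = 3 per group, from culture batches 1, 2 and 4 at 0 h and batches 1, 3 and 4 later. The labels list the drug for 0 h as well, whereas the methods describe these cells as untreated and collected on separate occasions. Cultures of a batch were harvested together, with the drug added at different intervals before, so time here is time since the drug and not time of day. A rhythm in clock time was not sampled.

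The clock is a feedback loop of transcription. BMAL1, the product of Arntl, pairs with CLOCK and binds E-boxes to switch on the Per, Cry, Nr1d1, Nr1d2 and Dbp genes, and the PER and CRY proteins then return to the nucleus and inhibit the pair. The nuclear receptors REV-ERBα and REV-ERBβ, encoded by Nr1d1 and Nr1d2, close a second loop by repressing Arntl through ROR elements, while DBP acts on its own targets through D-boxes. In lymphocytes, as in most cells, these genes are expressed outside the brain's central clock, and their levels depend on how far the cells of a culture are in step.

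The promoters are shown first for the members whose window held a motif that bears on the loop and whose level is described below, since these letters are where the loop's own factors could act. Sequences are from RefSeq on GRCm38.p6, and each window ran from 250 bases before a start to 50 after it. All 10 genes were looked up and 9 had a window, 13 windows in all, while Per2 had none. Both strands were searched. Capitals mark the variant E-box CACGTT in Nr1d1 (printed as its reverse complement), the D-boxes TTATGTAA or TTATGCAA in Per3 and Per1, the E-box CACGTG in Per1 and the ROR element ANTAGGTCA in Arntl. In Cry2 they mark the variant E-box, also as its reverse complement, run together with the overlapping core of the Ikaros motif, TGGGAA.
Nr1d1, chr11:98775378-98775627, minus strand, bases -250 to -1: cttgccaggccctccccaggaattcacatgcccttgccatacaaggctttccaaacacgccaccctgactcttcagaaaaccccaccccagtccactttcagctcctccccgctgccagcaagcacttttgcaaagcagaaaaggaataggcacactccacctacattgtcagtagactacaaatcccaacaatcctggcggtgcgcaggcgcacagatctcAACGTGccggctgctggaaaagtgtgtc
Per3, chr4:151044801-151044885, minus strand, bases -220 to -136: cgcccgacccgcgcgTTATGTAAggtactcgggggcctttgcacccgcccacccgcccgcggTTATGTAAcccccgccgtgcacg
Per1, chr11:69098768-69098948, plus strand, bases -181 to -1: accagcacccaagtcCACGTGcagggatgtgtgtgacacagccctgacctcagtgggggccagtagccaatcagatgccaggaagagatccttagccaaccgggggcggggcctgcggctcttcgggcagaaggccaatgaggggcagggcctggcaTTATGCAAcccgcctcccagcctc
Arntl, chr7:113207529-113207557, plus strand, bases 19 to 47 after the start: gaaggcagaaAGTAGGTCAgggacggagg
Cry2, chr2:92434220-92434245, minus strand, bases -176 to -151: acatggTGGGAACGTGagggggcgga

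Among all 32851 windows of this length, 0.661% held the ROR element, 1.66% a D-box, 4.68% the variant E-box and 7.15% the E-box. Of the 9 members with a window, 1 held the ROR element (Arntl), 2 a D-box (Per1 and Per3, which had it at 2 places), 3 the variant E-box (Nr1d1, Cry2 and Cry1) and 2 the E-box (Per1 and Cry1). Counted by window, as the shares are, these were 1, 2, 3 and 2 of the 13 windows of members. The core of the Ikaros motif was in 25.6% of all windows and in 2 of the 13 windows of members, in Cry2 and Per1. No window of Nr1d1 or Nr1d2 held it, which says only that these 6 letters are not in those 300 bases. The variant E-box and the core in Cry2 overlap by 2 bases.

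Ikzf1, the gene for Ikaros, was read first as a check of the line. Its level on the deposited log2 scale lay between 13.95 and 14.85 in the 18 control libraries and between 19.63 and 20.93 in the 18 Ikaros libraries, so the groups did not overlap at any time. All 13 pre-B markers examined had a row, while none of the 5 T cell markers and none of the 5 fibroblast markers did. Of myeloid markers 2 of 7 were in the table (Lyz2 and Itgam), and of erythroid markers 2 of 5 (Klf1 and Epor). At 24 h the differences of Itgam and Lyz2 were 4.24 and -2.94 (log2, limma, adjusted p 1.39e-07 and 4.96e-05). Lyz2 was on the other side at 0 and 2 h, higher in Ikaros cells by 2.94 and 2.66 (limma, adjusted p 0.000627 and 0.000986), while Itgam stood at -0.78 and 1.19 (0.487 and 0.132). Of the 13 pre-B markers 12 were called at 24 h, 10 higher and 2 lower, beside 62.9% of all genes. Their part in the results below was not tested. Values are after cqn and ComBat and the table holds no counts, so the depth behind a value is unknown and precision is set by 3 libraries per group.

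Among the clock genes Per3 and Arntl were called between the lines at 0 h, and Nr1d1, with the widest difference from 2 h on, was called at 2 h along with Per3, Nr1d2, Per1 and Dbp. By 24 h, Nr1d1, Nr1d2, Per2, Per3 and Cry2 were lower and Arntl and Dbp higher in Ikaros cells, while Per1 and Clock did not pass the test. Counts of members called in limma (adjusted p under 0.05 over all genes) were 2, 5, 6, 6, 7 and 7 of 9 at 0, 2, 6, 12, 18 and 24 h. The shares of all genes called at the same 6 times, in order, were 8.33%, 19.1%, 37.3%, 45.8%, 58.2% and 62.9%. At 18 and 24 h 7 of 9 members stand beside a majority of all genes, so the count alone does not set the clock genes apart from the table at those times. The median difference of the 9 genes at 24 h was -0.72 on the log2 scale against -0.01 over all genes, and at 2 h it was -0.28 against -0.0025. It was -0.09, 0.24, -0.52 and -0.69 at 0, 6, 12 and 18 h, so it lay above 0 at 6 h. The count was 2 at 2 h without replicate 1 or 2 of every group and 2 at 6 h without either, and 1 at 0 h without either.

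Groups of 3 libraries did not overlap for 3, 5, 5, 6, 8 and 8 members at the 6 times in order. The corresponding shares of all genes were 32.7%, 27.9%, 41.0%, 51.0%, 64.5% and 71.0%. Clock was the member whose groups overlapped at every time.

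**Figure D1:**
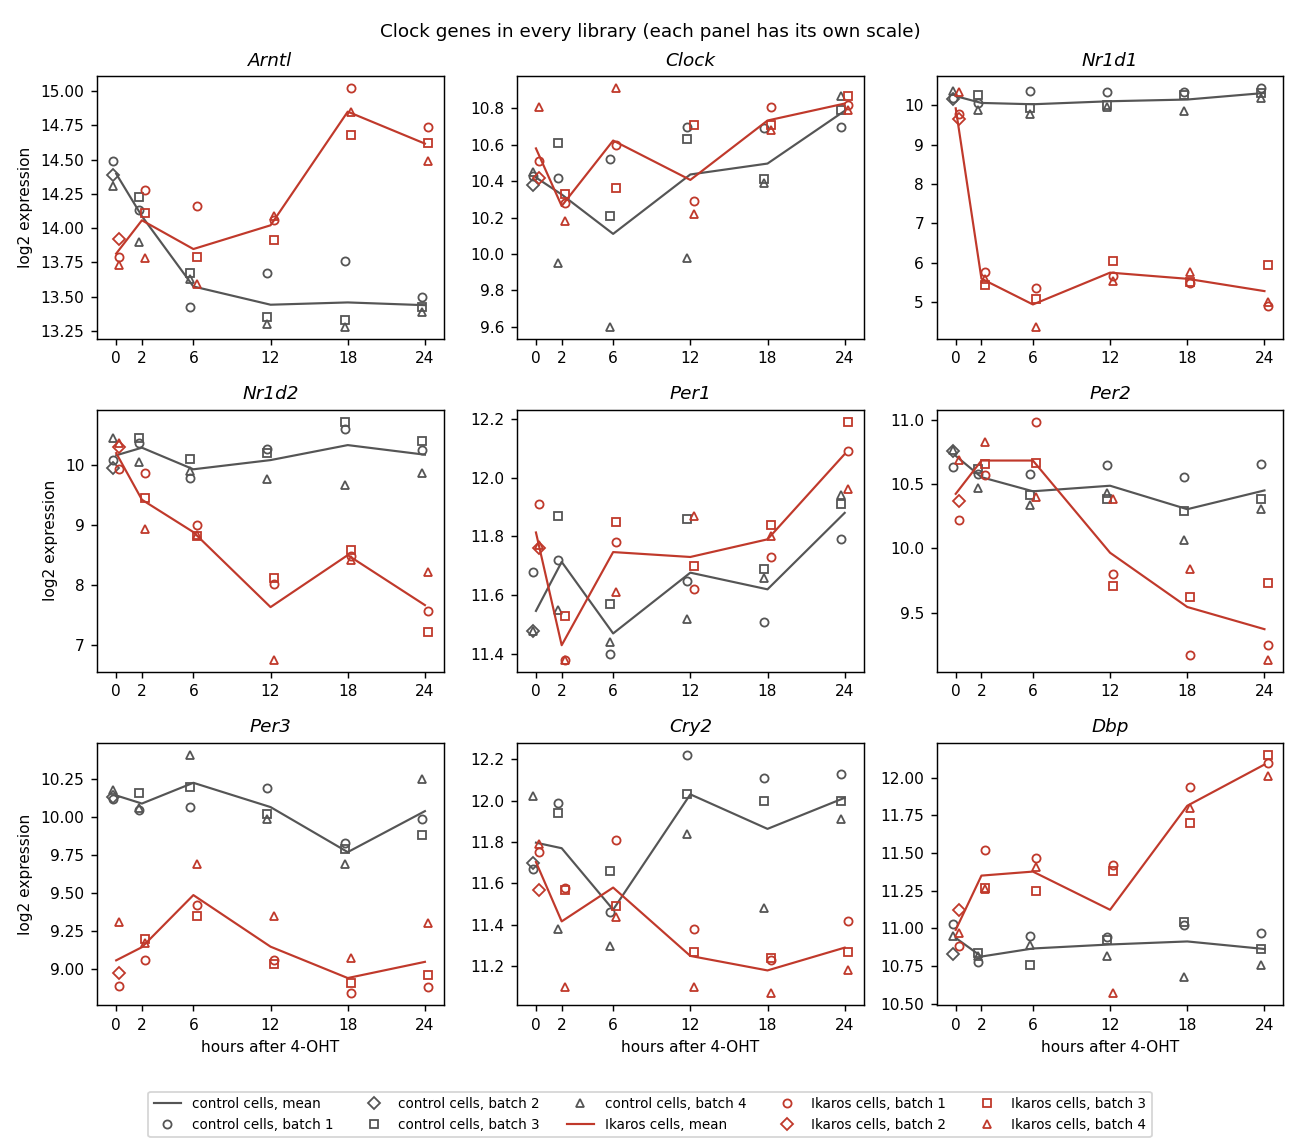
Log2 expression (y axis, own scale in each panel) of the 9 clock genes in each of 36 libraries against hours after 4-OHT (x axis), with control cells in grey, Ikaros cells in red, symbols for culture batches and lines through group means. Nr1d1 in Ikaros cells dropped from 9.64 to 10.34 at 0 h to below 6.1 at all later times, while its control libraries stayed between 9.79 and 10.43.

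Nr1d1, which encodes the transcriptional repressor REV-ERBα (ENSMUSG00000020889, GRCm38 chromosome 11, 98767932 to 98775333, reverse strand), showed the largest difference of any member. In control cells its level in all 18 libraries lay between 9.79 and 10.43. In Ikaros cells the 0 h libraries read 9.79, 9.64 and 10.34, against 10.18, 10.15 and 10.37 in control cells, and the groups overlapped. At 2 h the Ikaros libraries read 5.77, 5.42 and 5.58 and the control libraries 10.05, 10.25 and 9.88. The low level was reached by the first sampled time and the 3 Ikaros libraries were all far below the controls. It persisted: the Ikaros libraries read 5.36, 5.07 and 4.37 at 6 h, 5.65, 6.05 and 5.53 at 12 h, 5.49, 5.50 and 5.77 at 18 h, and 4.89, 5.94 and 4.99 at 24 h. No Ikaros library after 0 h came within 3.74 log2 units of any control library.

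The Nr1d1 difference was -0.31 at 0 h (limma, SE 0.24, adjusted p 0.568), -4.47 at 2 h (adjusted p 4.02e-13) and -5.09, -4.36 and -4.56 at 6, 12 and 18 h, and ended with -5.04 at 24 h (adjusted p 1.21e-15). These are 22.2-fold lower at 2 h and 32.9-fold lower at 24 h if the logarithm is to base 2. Ordered from the lowest difference among all 12762 genes, Nr1d1 was gene 2223 at 0 h, and then gene 7, 4, 13, 16 and 12 at the later times in order. Within culture batches the difference lay between -4.83 and -4.28 at 2 h and between -5.54 and -4.38 at 24 h, lower in 3 of 3 batches at each time after 0 h. In the Ikaros libraries after 0 h, Nr1d1 stood at the 0.5 to 6.0 percentile of genes within its library, and the depth behind such low values is not known. In bulk RNA, fewer cells that express a gene and less RNA per cell cannot be told apart.

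From 2 h to 24 h Nr1d1 in Ikaros cells changed by -0.32 (limma, SE 0.24, adjusted p 0.27). An F test over 2 to 24 h called it (adjusted p 0.0321), but not after quantile normalization (0.168), with trended and robust moderation (0.0614), with Ikaros groups alone (0.135) or without replicate 1, 2 or 3 of every group (0.0679, 0.0635 and 0.282).

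The 3′ end of Nr1d1 overlaps that of Thra, which encodes thyroid hormone receptor α, by 1075 bases on the opposite strand, and the strand setting used for counting is not given in the sources used here. Thra read 11.02, 11.28 and 11.37 in Ikaros cells at 2 h and 10.83, 10.96 and 10.95 in control cells, so it was not lower when Nr1d1 had dropped. Its difference was 0.31 at 2 h (limma, adjusted p 0.123), -0.63 at 12 h (0.000446) and -2.02 at 24 h (9.19e-13), with Ikaros libraries at 9.04, 8.93 and 9.22 at 24 h. The neighbours thus moved at different times, Nr1d1 by 2 h and Thra from 12 h.

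**Figure D2:**
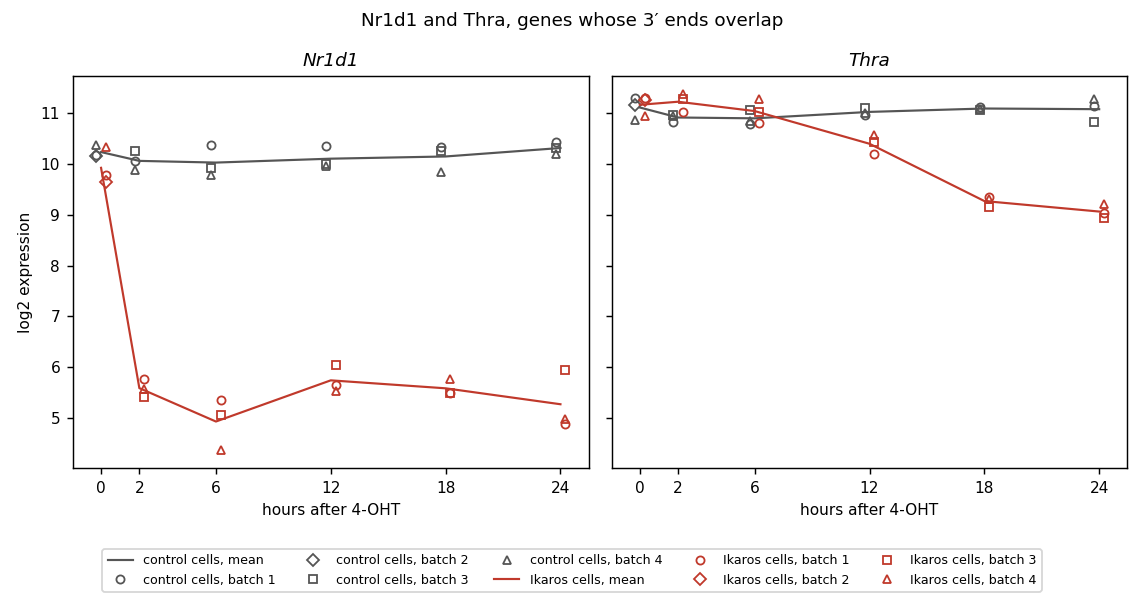
Log2 expression (shared y axis) of Nr1d1 and of Thra against hours after 4-OHT (x axis) in each library, with control cells in grey, Ikaros cells in red, symbols for batches and lines through group means. At 2 h Nr1d1 stood at 5.42 to 5.77 in Ikaros cells while Thra stood at 11.02 to 11.37, and Thra fell to 8.93 to 9.22 by 24 h.

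Nr1d2, which encodes the related receptor REV-ERBβ (chromosome 14, 18204054 to 18239127, reverse strand), fell more slowly and less. Ikaros libraries read 9.93, 10.29 and 10.37 at 0 h, 9.87, 9.45 and 8.94 at 2 h, a mean of 8.88 ± 0.10 (SD, n = 3) at 6 h, 8.02, 8.12 and 6.75 at 12 h, 8.49, 8.59 and 8.41 at 18 h, and 7.56, 7.21 and 8.22 at 24 h. Control libraries lay between 9.67 and 10.72 throughout. The groups overlapped at 0 h only, and the batch 4 library at 12 h was the lowest. The difference was 0.03 at 0 h, -0.86 at 2 h (limma, SE 0.30, adjusted p 0.0456), -1.05 at 6 h (0.00808) and -2.45 at 12 h (2.19e-07), followed by -1.83 at 18 h and -2.50 at 24 h (5.71e-08), the last being 5.68-fold lower.

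The early Nr1d2 calls were fragile. At 2 h the call was lost without replicate 1 (adjusted p 0.184) or replicate 2 (0.322) of every group, after quantile normalization (0.0714) and with the 2 h groups alone (0.117). At 6 h it was lost without replicate 1 (0.0724) or 2 (0.129). Its difference was negative in 3 of 3 batches at every time after 0 h, and lay between -1.11 and -0.50 at 2 h. From 2 h to 24 h the difference changed by -1.64 (limma, SE 0.43, adjusted p 0.0026, but 0.106 and 0.0978 without replicate 1 and 2), whereas for Nr1d1 this change was -0.57 (0.183). Both receptors were thus low at 24 h, Nr1d1 from 2 h on and Nr1d2 by steps, with -1.05 at 6 h and -2.45 at 12 h.

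Arntl, the gene of the activator BMAL1 (chromosome 7, 113207465 to 113314126, forward strand), went in opposite directions in the 2 lines. In control cells its libraries read 14.49, 14.39 and 14.31 at 0 h, 14.13, 14.23 and 13.90 at 2 h, 13.42, 13.67 and 13.63 at 6 h and 13.50, 13.42 and 13.39 at 24 h. In Ikaros cells they read 13.79, 13.92 and 13.73 at 0 h, 14.28, 14.11 and 13.78 at 2 h, 14.06, 13.91 and 14.09 at 12 h, 15.02, 14.68 and 14.85 at 18 h and 14.74, 14.62 and 14.49 at 24 h. Every Ikaros library was below every control library at 0 h and above every one from 12 h on.

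The Arntl difference was -0.58 at 0 h (limma, SE 0.15, adjusted p 0.0106), -0.03 at 2 h (0.912) and 0.28 at 6 h (0.144), and then above 0 in each batch, with 0.58 at 12 h (0.00204), 1.39 at 18 h (6.61e-09) and 1.18 at 24 h (9.03e-08). The last is 2.27-fold higher in Ikaros cells. The 0 h call was lost without replicate 1 (adjusted p 0.0622) or 2 (0.237) and the 12 h call without replicate 2 (0.0619), but the sign held within 3 of 3 batches at both times. The change of the difference from 0 h at 6, 12, 18 and 24 h was 0.86, 1.16, 1.97 and 1.76 (limma, adjusted p 0.00492, 0.000107, 1.94e-08 and 8.46e-08). The 6 h value was lost without replicate 1 (0.117) or 2 (0.0929).

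Part of that change lay in the control cells. Relative to 0 h, Arntl stood there at -0.82, -0.96, -0.94 and -0.96 at 6, 12, 18 and 24 h, which was known when the genes were chosen and is given as a description. Since the 0 h cells came from other harvests, the same change was read against 2 h, where control cells had moved by -0.65 at 24 h (limma, SE 0.15, adjusted p 0.0411, but 0.19, 0.556 and 0.144 without replicate 1, 2 and 3, and 0.517 with these groups alone). Ikaros cells rose from 2 h to 24 h by 0.56 (0.00188). The difference between lines thus changed by 1.21 over that interval (SE 0.21, adjusted p 2.6e-05).

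Clock, whose protein is the partner of BMAL1 (chromosome 5, 76209868 to 76304792, reverse strand), differed little between lines. Ikaros libraries read 10.51, 10.42 and 10.81 at 0 h and 10.82, 10.87 and 10.79 at 24 h, against 10.43, 10.38 and 10.45 and then 10.70, 10.79 and 10.87 in control cells. The groups overlapped at both times. Differences at 0, 2, 12, 18 and 24 h were 0.16, -0.06, -0.03, 0.23 and 0.04 (limma, SE 0.20, adjusted p 0.327 to 0.915). The 6 h difference of 0.51 was called (0.0434), with Ikaros libraries at 10.60, 10.36 and 10.91 and control libraries at 10.52, 10.21 and 9.60. It rested on batch 4, where it was 1.31, against 0.08 in batch 1 and 0.15 in batch 3. Without replicate 3 it was 0.12 (adjusted p 0.546), and the call was also lost without replicate 1 (0.0788) or 2 (0.0874) and with the 6 h groups alone (0.246).

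**Figure D3:**
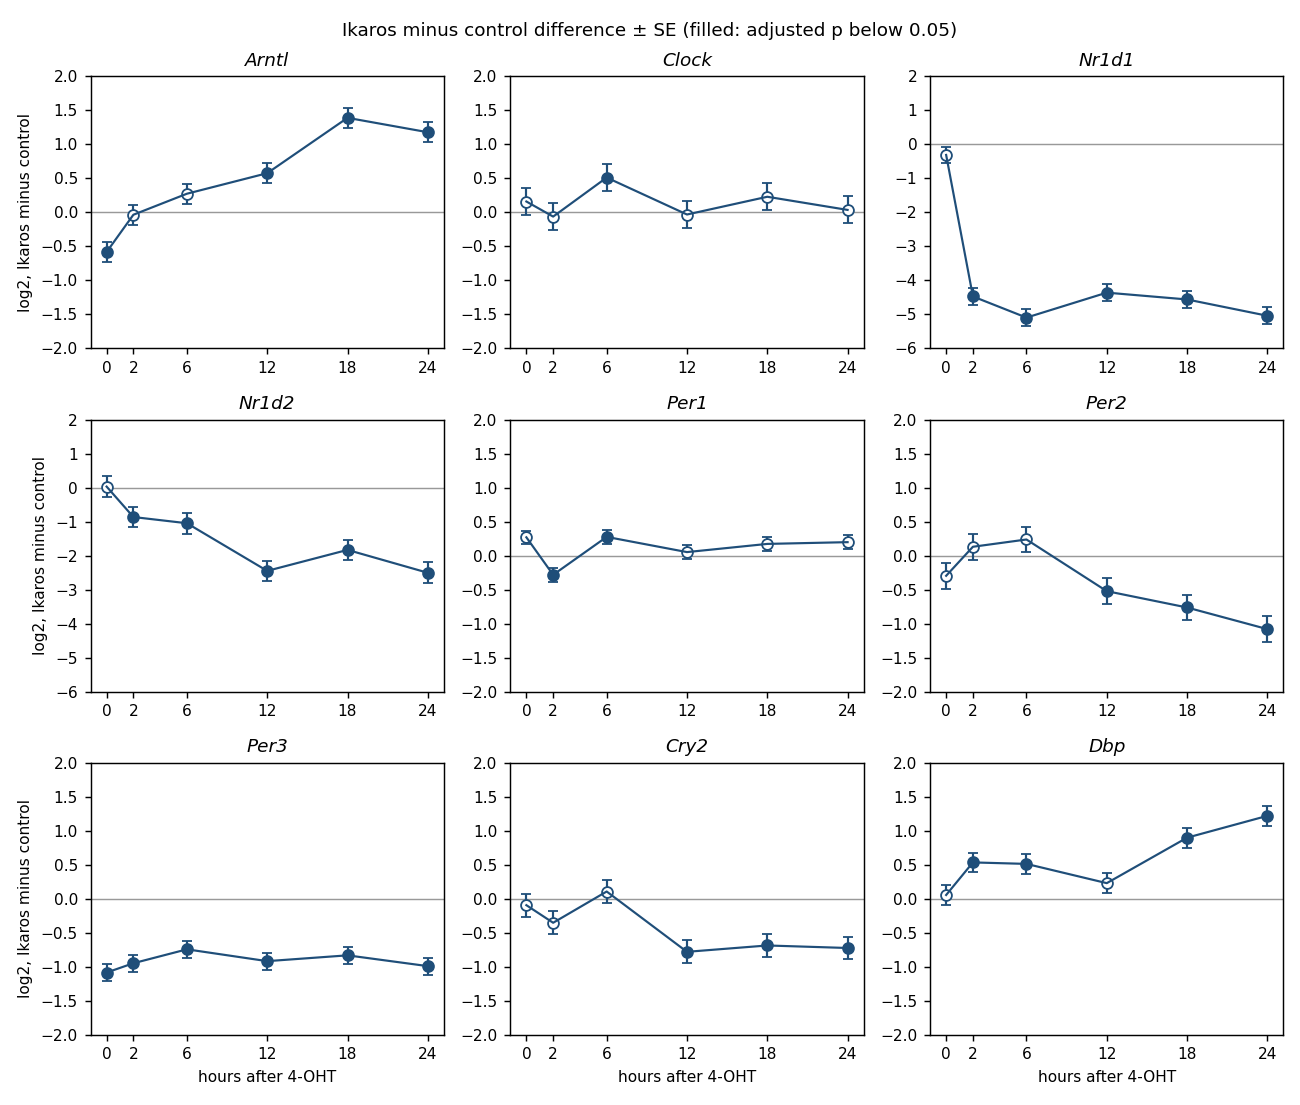
Ikaros minus control difference in log2 expression (y axis, wider scale for Nr1d1 and Nr1d2) with its standard error against hours after 4-OHT (x axis) for each clock gene, with filled points where limma's adjusted p was under 0.05. Arntl moved from -0.58 at 0 h to 1.18 at 24 h, Per3 stayed between -1.08 and -0.74, and Nr1d1 dropped to -4.47 at 2 h.

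The 3 Period genes, whose proteins are the negative limb with the cryptochromes, each had a course of their own. Per3 (chromosome 4, 151003652 to 151044665, reverse strand) was lower in Ikaros cells at every time, 0 h included. Its Ikaros libraries read 8.89, 8.97 and 9.31 at 0 h and 8.88, 8.96 and 9.30 at 24 h, while control libraries read 10.12, 10.13 and 10.18 and then 9.99, 9.88 and 10.25. No Ikaros library reached any control library at any of the 6 times. The difference was -1.08 at 0 h (limma, SE 0.13, adjusted p 6.14e-07), then -0.95, -0.74, -0.92 and -0.83 at 2, 6, 12 and 18 h, and -0.99 at 24 h (1.25e-07). The F test over its 5 changes from 0 h gave an adjusted p of 0.532. The Per3 difference was thus present without the drug, if the methods' account of 0 h holds, and no change of it with time was detected.

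Per3 lies within the span of Camta1 on the same strand. Camta1 read 8.86, 9.13 and 8.98 in Ikaros and 9.26, 9.30 and 9.20 in control cells at 0 h, a difference of -0.26 (limma, adjusted p 0.561). At 24 h its difference was -1.01 (0.000138), close to that of Per3. The Camta1 groups did not overlap at 0 h, although the difference did not pass. Reads shared between Per3 and Camta1 cannot be told apart in these values at any time.

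Per2 (chromosome 1, 91415982 to 91459324, reverse strand) fell late. Ikaros libraries read 10.22, 10.37 and 10.69 at 0 h, 10.99, 10.67 and 10.40 at 6 h, 9.80, 9.71 and 10.39 at 12 h, 9.17, 9.62 and 9.84 at 18 h and 9.25, 9.73 and 9.13 at 24 h. Control libraries lay between 10.07 and 10.77 at all times. The groups did not overlap from 12 h on, although the batch 4 library at 12 h was just below the lowest control. The difference was -0.30, 0.13 and 0.24 at 0, 2 and 6 h, none of them called, and then -0.52 at 12 h (limma, SE 0.19, adjusted p 0.0254), -0.76 at 18 h (0.00113) and -1.08 at 24 h (1.75e-05), or 2.12-fold lower.

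The 12 h call of Per2 was lost without replicate 1 (adjusted p 0.224) or 2 (0.255) and with the 12 h groups alone (0.106), and the 18 h call without replicate 1, where the difference was -0.45 (0.103). From 2 h to 24 h the difference changed by -1.21 (SE 0.27, adjusted p 0.000516). The change from 0 h to 24 h was -0.78 (0.0168), which passed in no fit that left a replicate out (0.0541 to 0.103).

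Per1 (chromosome 11, 69095217 to 69109960, forward strand), the Period gene known for quick responses to signals, moved little and in both directions. Ikaros libraries read 11.91, 11.76 and 11.77 at 0 h, 11.38, 11.53 and 11.38 at 2 h, 11.78, 11.85 and 11.61 at 6 h and 12.09, 12.19 and 11.96 at 24 h. Control libraries read 11.68, 11.48 and 11.48, then 11.72, 11.87 and 11.55, then 11.40, 11.57 and 11.44, and at 24 h 11.79, 11.91 and 11.94. The Ikaros libraries were above the controls at 0, 6, 18 and 24 h and below them at 2 h, without overlap. The difference was 0.27 at 0 h (limma, SE 0.10, adjusted p 0.105), -0.28 at 2 h (0.0469) and 0.28 at 6 h (0.0312), and later 0.05, 0.17 and 0.20 (0.0856 at 24 h).

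With a replicate block for the batch, the 0 h and 24 h differences of Per1 passed (limma, adjusted p 0.0401 and 0.0426). The calls at 2 and 6 h did not survive leaving out replicate 1 (0.348 and 0.295) or 2 (0.32 and 0.151), nor the fit of the compared groups alone (0.311 and 0.201), and the 2 h call was lost with trended and robust moderation (0.0552). Without replicate 3 the 24 h difference was 0.29 and passed (0.0363). In Ikaros cells Per1 rose from 2 h to 24 h by 0.65 (adjusted p 3.22e-06), and the difference between lines changed by 0.48 over that interval (SE 0.14, 0.00644, but 0.141 and 0.109 without replicate 1 and 2).

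Cry2, the cryptochrome repressor with a row (chromosome 2, 92403646 to 92434043, reverse strand), was lower in Ikaros cells from 12 h on. Ikaros libraries read 11.75, 11.57 and 11.79 at 0 h, 11.38, 11.27 and 11.10 at 12 h, 11.23, 11.24 and 11.07 at 18 h and 11.42, 11.27 and 11.18 at 24 h. Control libraries read 11.67, 11.70 and 12.02 at 0 h, 12.22, 12.03 and 11.84 at 12 h, 12.11, 12.00 and 11.48 at 18 h and 12.13, 12.00 and 11.91 at 24 h. The groups overlapped at 0, 2 and 6 h and not later. The difference was -0.09 at 0 h, -0.35 at 2 h (limma, SE 0.17, adjusted p 0.157), 0.11 at 6 h (0.651), and then lower in Ikaros cells, with -0.78 at 12 h (0.000422), -0.69 at 18 h (0.00104) and -0.72 at 24 h (0.000546), the last being 1.65-fold lower. The 18 h call was lost without replicate 2 (0.0542). With separate batch blocks for the 0 h cultures, the 2 h difference of Cry2 passed as well (0.0133), as it did without replicate 3 (-0.39, 0.0266). Cry2 overlaps D930015M05Rik on the opposite strand by 23417 bases, and that gene has no row to read beside it. Arntl and Clock overlap genes with no row too, by 2394 and 4635 bases.

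Dbp, the gene of the output activator DBP (chromosome 7, 45705088 to 45710203, forward strand), rose in Ikaros cells. Ikaros libraries read 10.88, 11.12 and 10.97 at 0 h, 11.52, 11.27 and 11.26 at 2 h, 11.42, 11.38 and 10.57 at 12 h, 11.94, 11.70 and 11.80 at 18 h and 12.10, 12.15 and 12.01 at 24 h. The 18 control libraries lay between 10.68 and 11.04. The groups were apart at 2, 6, 18 and 24 h, and the batch 4 library at 12 h lay below all controls. The difference was 0.06 at 0 h, 0.54 at 2 h (limma, SE 0.15, adjusted p 0.00973), 0.51 at 6 h (0.00686), and after a value of 0.23 at 12 h (0.204) it reached 0.90 at 18 h (7.03e-06) and 1.22 at 24 h (4.33e-08), or 2.33-fold higher.

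Without replicate 3 the Dbp difference at 12 h was 0.47 (adjusted p 0.00538). The 2 h call was lost without replicate 1 (0.226) or 2 (0.126) and with the 2 h groups alone (0.0689), and the 6 h call without replicate 1 (0.0839) or 2 (0.0883). Dbp overlaps Sphk2, which encodes a sphingosine kinase on the opposite strand, by 737 bases. At 24 h Sphk2 read 13.09, 12.97 and 12.93 in Ikaros and 12.92, 12.80 and 12.78 in control cells, a difference of 0.16 (limma, adjusted p 0.261).

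The next question was which lines changed with time. Relative to its own 0 h, the control line had 0 members called at 2 h by limma (1 at an unadjusted p under 0.05) and 1, Arntl, at each of 6, 12, 18 and 24 h. These Arntl values were known when the genes were chosen, so the calls are a description. All were lost with the compared groups alone (adjusted p 0.0891, 0.300, 0.235 and 0.164). They were also lost without replicate 2 of every group (0.137, 0.999, 0.622 and 0.489). The sizes of the change in that fit were -0.88, -0.92, -0.88 and -0.96 at 6, 12, 18 and 24 h. Over all genes the share called in control cells at 2, 6, 12, 18 and 24 h was 0.0470%, 5.10%, 0.0549%, 0.478% and 0.470%, so few genes of any kind passed there. Against 2 h, Arntl was the member called at 24 h, among 0.454% of genes. Over 2 to 24 h an F test in control cells also called Arntl (adjusted p 0.0491), among 0.979% of genes. That call did not hold without replicate 1, 2 or 3 (0.455, 0.814 and 0.108) or with control groups alone (0.293). With separate batch blocks for the 0 h cultures the F test also called Cry2 (0.0111) and Per1 (0.0328), and with the common batch block Cry2 was called in control cells at 6 h (-0.41, 0.0422). The widest spans of control group means were 0.96 for Arntl, 0.68 for Clock and 0.56 for Cry2, and the narrowest was 0.12 for Dbp.

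In Ikaros cells the members called against their own 0 h were 2 at 2 h (Nr1d1 and Per1) and 4, 4, 6 and 7 at the later times. The shares of all genes were 19.2%, 32.8%, 46.1%, 54.6% and 60.6%. At 24 h Nr1d1, Nr1d2, Per2 and Cry2 had fallen, with changes of -4.65, -2.53, -1.06 and -0.41, and Dbp, Arntl and Per1 had risen, by 1.10, 0.80 and 0.26 (limma, adjusted p 7.31e-15 to 0.0359). Per3 and Clock stood at -0.01 and 0.25 and did not pass. With the batch as a replicate block, Nr1d2 (-0.86, 0.0432) and Cry2 (-0.37, 0.049) were called at 2 h too, and the calls of Per2 at 12 h (0.0766, and 0.0526 with trended and robust moderation) and Per1 at 24 h (0.0726) were lost. Without replicate 1 or 2 of every group, the count at 6 h fell to 2 and 1, and at 12 h to 2 in both. The 24 h calls of Cry2 (limma, adjusted p 0.0999 and 0.152) and Per1 (0.0908 and 0.279) were lost in the same 2 fits. So were those of Cry2 at 12 h (0.0989 and 0.141) and 18 h (0.0713 and 0.0712).

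Against 2 h, which shares its harvests with the later times, 6 members were called at 24 h in Ikaros cells beside 60.6% of genes. Per1, Clock, Arntl and Dbp were higher and Per2 and Nr1d2 lower. Clock rose by 0.56 (limma, adjusted p 0.0169, but 0.1 and 0.103 without replicate 1 and 2) while in control cells it stood 0.46 higher (0.34). An F test over 2 to 24 h in Ikaros cells called 7 members beside 67.6% of genes, with Per3 among them (0.00572, but 0.138 and 0.122 without replicate 1 and 2) and Clock and Cry2 not, although Cry2 passed with separate batch blocks for the 0 h cultures (0.00951).

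The difference between lines itself changed from 0 h in 2 members at 2 h (Nr1d1 and Per1), 2 at 6 h (Nr1d1 and Arntl), and then 4, 5 and 6 of the 9. The shares of genes with such a change were 3.10%, 15.9%, 29.7%, 43.0% and 48.4% at these times in order. The 6 at 24 h were Nr1d1, Nr1d2, Per2 and Cry2, which moved down, and Arntl and Dbp, which moved up. From 2 h to 24 h 5 members changed beside 47.3% of genes. With separate batch blocks for the 0 h cultures, Nr1d2 at 6 h from 0 h (-1.08, limma, adjusted p 0.0497) and Cry2 from 2 h to 24 h (-0.37, 0.0335) passed as well. Over all 5 changes, the F test called 7 members beside 59.8% of genes, every member but Per3 and Clock. These comparisons share their 0 h or 2 h libraries, so the times are not independent of each other.

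Other genes of the clock were read from lists written with earlier results of these data known. Of 12 further genes of the loops 7 had a row. At 24 h 6 of these were called, 4 higher and 2 lower, beside 62.9% of all genes. Bhlhe41, the gene of the E-box repressor DEC2, was higher by 3.54 (limma, SE 0.45, adjusted p 1.47e-07) but already by 3.20 at 0 h (1.47e-05). Its relative Bhlhe40, for DEC1, went the other way, by -1.56 (8.69e-06), with -0.33 at 0 h (0.558). Arntl2, for the BMAL1 relative BMAL2, was higher by 1.94 (2.33e-12), having passed from 2 h on. Gm129, for the repressor CHRONO, was higher by 1.45 (5.84e-05) and Timeless, a gene with a role in DNA replication, was lower, at -1.10 (1.02e-08). Bhlhe40 and Bhlhe41 thus stood on opposite sides at 24 h, with Bhlhe41 already higher at 0 h. Arntl and Arntl2 were both higher at 24 h. The RORs, the activators that compete with REV-ERB on ROR elements, had no row.

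Of 15 genes for enzymes that modify clock proteins, 13 had a row. At 24 h 9 were called, 8 higher and 1 lower, beside 62.9% of all genes, so the count alone does not set them apart. Btrc, which encodes the ligase subunit β-TrCP that marks PER proteins for destruction, was higher by 0.64 at 2 h (limma, adjusted p 0.000293) and by 2.25 at 24 h (SE 0.12, adjusted p 6.75e-15). Csnk1e, for the kinase CK1ε that phosphorylates PER, was higher by 0.47 at 2 h (0.000218) and 1.37 at 24 h (1.89e-13). Usp2, for a deubiquitinase, was higher by 1.12 at 24 h (0.000318). With the 2 h groups alone, no gene of this list was called at 2 h. The median difference of these 13 genes was 0.49 against -0.01 over all genes at 24 h.

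Of 10 genes often read as outputs of the clock, all had a row. At 24 h 7 were called, 1 higher and 6 lower, beside 62.9% of all genes. Tspan4, for a tetraspanin, differed by -4.49 (limma, adjusted p 2.07e-16) and by -2.39 already at 6 h. Nampt, for an enzyme of NAD synthesis, differed by -2.11 (5.92e-12), Fkbp5, for a chaperone partner of steroid receptors, by -2.05 (7.91e-15) and Ppard, for a nuclear receptor, by -1.10 (3.2e-07). Ccrn4l, for the deadenylase-like protein nocturnin, was higher by 2.63 (1.99e-14). The median of the 10 was -0.58. At 24 h 22 of the 30 genes in the 3 lists were called, 73.3% beside 62.9% of all genes.

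**Figure D4:**
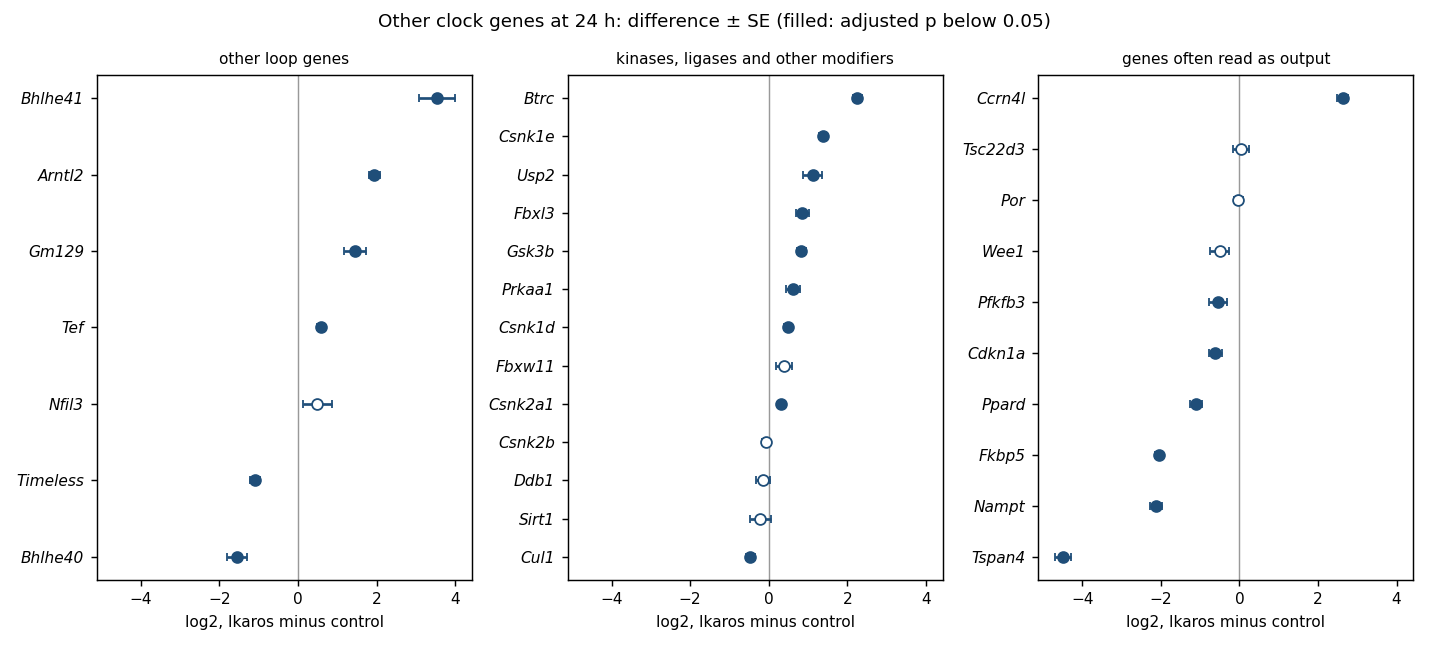
Ikaros minus control difference in log2 expression at 24 h (x axis) with its standard error for 30 other clock genes (y axis) in 3 lists, with filled points where limma's adjusted p was under 0.05. Btrc at 2.25 and Ccrn4l at 2.63 lie highest in their lists, and Tspan4 at -4.49 lies lowest of all.

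Culture batches were then compared within groups over the 30 libraries from 2 to 24 h. An F test called 3 members between batches, beside 34.8% of genes: Cry2 (limma, adjusted p 0.000586), Arntl (0.0241) and Per1 (0.0433). Batch 4 minus batch 1 was -0.35 (SE 0.06) for Cry2 and -0.25 (SE 0.07) for Arntl, and batch 3 minus batch 1 was 0.13 (SE 0.05) for Per1. With the Ikaros libraries alone 0 members were called. The Cry2 call was lost without replicate 3 (0.419), which is batch 4, and those of Arntl and Per1 without replicate 1 (0.361 and 0.133), without replicate 3 (0.278 and 0.0997) and, for Per1, without replicate 2 (0.952) and with trended and robust moderation (0.0622).

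Deviations of each library from its group mean were compared between Arntl and each of the other 8 members over 36 libraries. Arntl and Cry2 gave Pearson's r = 0.608 (permutation p 0.00602, adjusted over the 8 relations 0.0482) and Spearman's rho = 0.543 (permutation p 0.012, adjusted 0.0962). Without the 2 libraries farthest from the median of Arntl r was 0.535, and within batches 1, 3 and 4 it was 0.589, 0.469 and 0.365. With batch means removed, r was 0.470 (adjusted permutation p 0.0696), so it did not pass. The other 7 relations gave r between -0.08 and 0.27 (adjusted permutation p 0.381 to 0.658).

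Across all 36 libraries, the genes most like each member but Per3 by Pearson's r were found among all genes, as a description in which the line and time differences weigh most. Nr1d1 was most like Anks1 (0.982) and Fam212a (0.980), and Nr1d2 like Mre11a (0.963) and Utp20 (0.959). Dbp was most like Tec (0.937) and Usp30 (0.926), Cry2 like Slc45a4 (0.915) and Atp13a3 (0.909), Per2 like Pdxp (0.885) and B4galt5 (0.875), and Arntl like Mettl7a1 (0.880) and Ipmk (0.868). The lowest values were for Clock, with Fzd5 (0.817) and Acap2 (0.803), and for Per1, with Golph3 (0.770) and Lrch3 (0.767). Among the members, Nr1d1 and Nr1d2 were the most alike (0.833) and Nr1d1 and Dbp the most opposed (-0.759), and Arntl with Nr1d1 gave -0.533.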

How the data were processed

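RNA was sequenced from 36 cultures of B3 cells as strand-marked mRNA libraries. The authors aligned the reads to mm10 with TopHat2, counted genes with HTSeq, corrected GC content and length effects with cqn and the library preparation batch with ComBat in its non-parametric form. The table they deposited is on the log2 scale, with a constant added so that the lowest is 1. The base is the one cqn uses and is not stated in the table. The correction made before deposition removes variation that the model cannot see, so errors may be too small.

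Groups were taken from the labels. One limma 3.58.1 model (R 4.3.3) with 12 group means was fitted to all 12762 genes, two-sided p-values had a Benjamini-Hochberg adjustment across the whole table, and calls needed an adjusted p under 0.05. The script was tested on simulated data. Permutation p-values used 100000 resamples (two-sided). Gene positions are from GENCODE on GRCm38. The members and lists, and the variant E-box motif, were chosen with earlier results of these data known. Every member with a row is named, and from each other list the called genes with an absolute log2 difference of at least 1 at 24 h, at most 5. The 2 genes most like each member by Pearson's r over the libraries are named too, except those of Per3, which are not reported here. Labels give a batch number shared by both lines, which pairs the libraries. Deviations of paired libraries correlated between -0.0620 and 0.507 over 18 pairs (median 0.127), and 12 pairs were above 0.1. Alternatives were the batch as a replicate block, also with separate 0 h blocks, a filter at the 25th percentile of mean expression (9571 genes), quantile normalization, trended and robust moderation, fits of the compared groups alone and leaving out each replicate.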

Additional observations from a re-analysis of the deposited data

Results flagged for a closer look

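Results below are changes of the Ikaros minus control difference between 2 times, each tested as an interaction in limma with adjustment over all genes, in log2 units. From 0 h, Nr1d1 at 2, 6, 12, 18 and 24 h changed by -4.16, -4.79, -4.05, -4.25 and -4.73 (adjusted p 9.68e-09 to 1.74e-11), and none of these calls was lost without replicate 1, 2 or 3 of every group. Nr1d2 changed by -2.48 at 12 h (7.01e-05), -1.86 at 18 h (0.000891) and -2.54 at 24 h (1.95e-05), of which the 18 h call was lost without replicate 2 (0.0682). Arntl changed the other way at 6, 12, 18 and 24 h, by 0.858 (0.00492), 1.16 (0.000107), 1.97 (1.94e-08) and 1.76 (8.46e-08), and the 6 h call was lost without replicate 1 or 2. Dbp changed by 0.843 at 18 h (0.00155, but 0.0612 without replicate 1) and by 1.16 at 24 h (3.42e-05).

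The smaller changes from 0 h were each lost in fits that left a replicate out. Cry2 changed by -0.686 at 12 h (limma, adjusted p 0.0304), -0.593 at 18 h (0.0464) and -0.630 at 24 h (0.0309), all lost without replicate 1 or 2. Per1 changed by -0.552 at 2 h (0.0261, 0.0534 to 0.463 without a replicate) and Per2 by -0.785 at 24 h (0.0168, 0.0541 to 0.103 without a replicate).

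From 2 h to 24 h, times that share their harvests, Arntl changed by 1.21 (limma, adjusted p 2.6e-05) and Per2 by -1.21 (0.000516). Over the same interval Nr1d2 changed by -1.64 (0.0026), Per1 by 0.480 (0.00644) and Dbp by 0.685 (0.00756), and these calls were lost without replicate 1 or 2 for Nr1d2 and Per1 and without replicate 2 for Dbp (0.139).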

How the results depend on the processing

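Trended and robust moderation moved no count of called genes by more than 1.5 times, though it ended 4 calls of members given above, and every difference that changed sign under an alternative was one that did not pass. The filter at the 25th percentile removed Nr1d1 and Nr1d2 by their own low mean, so counts of members there fell to 3 at 2 h (Ikaros against control), to 1, 1, 2 and 3 for changes of the difference from 0 h at 2, 6, 12 and 18 h, and to 1, 2 and 2 for Ikaros cells against 0 h at 2, 6 and 12 h. The filter also left only 4 of the 7 other loop genes to test, of which 0 were called at 0 h and 2 at 12 h. Fits of the compared groups alone, with fewer samples, gave 2 members at 2 h, 1 change of the difference at 2 h, 0 for Arntl in control cells at 6, 12, 18 and 24 h, against 2 h and in the F test, and 1 and 2 in Ikaros cells at 2 and 6 h. They gave 1 loop gene at 2 h, 0 and 1 modifiers at 2 and 6 h, and 0 and 3 outputs. With the replicate block there were 2 members in control cells at 6 h and 4 in Ikaros cells at 2 h, and with separate 0 h blocks 3 in the control F test and 5 loop genes at 6 h. With separate 0 h blocks, the change of a line from its own 0 h cannot be told apart from the blocks, so it was not computed there. The block changed no other count of members or list genes by more than 1.5 times. Deviations of Arntl with its block removed gave r = -0.0733 with Clock, 0.443 with Per3, 0.470 with Cry2 and -0.112 with Dbp. The batch F test called 5 members after quantile normalization, where r with Cry2 was 0.600 (adjusted permutation p 0.0537), and 0 with Ikaros libraries alone.

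Leaving out 1 replicate of every group, members called ranged from 1 to 2 at 0 h, 2 to 6 at 2 h and 2 to 5 at 6 h. Changes of the difference from 0 h ranged from 1 to 1 at 2 h, 1 to 4 at 6 h and 3 to 5 at 18 h, from 2 to 5 between 2 and 24 h, and from 4 to 7 in the F test. Control cells ranged from 0 to 1 against 0 h at 6, 12, 18 and 24 h, and were at 0 against 2 h and in the F test. Ikaros cells ranged from 1 to 3 at 2 h, 1 to 5 at 6 h and 2 to 5 at 12 h against 0 h, and the batch test from 0 to 2. Loop genes ranged from 1 to 4 at 2 h and 2 to 5 at 12 h, modifiers from 1 to 6 at 6 h and 7 to 10 at 18 h, and outputs from 0 to 2, 0 to 4, 3 to 8 and 4 to 8 at 0, 2, 6 and 12 h. Values of r with Arntl ranged from -0.478 to 0.719 for Per1, -0.200 to 0.380 for Per3, 0.421 to 0.750 for Cry2, -0.0577 to 0.444 for Nr1d2, -0.158 to 0.460 for Dbp, 0.0322 to 0.515 for Nr1d1, 0.0632 to 0.210 for Clock and 0.134 to 0.366 for Per2. Differences that changed sign ranged from -0.118 to 0.124 for Nr1d2 and -0.0639 to 0.157 for Dbp at 0 h, -0.123 to 0.0127 for Arntl (0.00902 without replicate 3) and -0.205 to 0.0442 for Clock at 2 h, -0.0159 to 0.244 for Cry2 at 6 h, -0.166 to 0.160 for Clock and -0.0958 to 0.159 for Per1 at 12 h, and -0.00292 to 0.0969 for Clock at 24 h. The cause was not tested. Depth is unknown, and 3 libraries per group limit what could be detected. Shares of all genes called under the alternative fits are not given here. A lower count of members there is thus not told apart from fewer calls over the whole table.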
